A study of Mus musculus with 10 samples.

Results

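Protein-coding genes of mouse chromosome 16 were followed as a group through the 10 embryonic stem cell (ESC) lines. A gene was a member when its mean over the lines was at least 2 CPM, where CPM counts the reads of a gene per 1000000 reads assigned to any gene in that line. The prefixes Rpl, Rps, Nduf, Uqcr, Cox and Atp5 (subunits of the ribosome and the respiratory chain) were left out, together with 4 single genes. This gave 333 members of the 661 protein-coding genes of the chromosome in the files. A further 316 genes lay below 2 CPM, 11 were left out by name at or above that level and 1 below it. The chromosome was chosen because 1 line, wt 1, stands apart on it, so the level of wt 1 is given below as a description and carries no test.

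The lines differ in the number of intact copies of Tdg, which encodes thymine DNA glycosylase. There were 3 Tdg+/+ lines, called wt here, 3 Tdg+/- lines and 4 Tdg-/- lines. All were male, were labelled C57BL/6, were untreated and grew without feeders on gelatin in serum-free 2i medium with LIF. They were derived from timed matings of Tdg+/- parents, on feeder cells that were later removed, and each library is 1 line. The labels do not say which lines are littermates, so the p-values measure the spread between lines.

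TDG cuts thymine out of G:T mismatches. It also removes some of the oxidised forms of 5-methylcytosine that TET enzymes make, 5-formylcytosine and 5-carboxylcytosine, mostly at CG dinucleotides. The amount of RNA that a gene gives depends on its promoter, on the number of its copies and on how fast its transcripts decay. Genes that are neighbours on a chromosome share its copy number but usually no single regulator. Mouse chromosome 16 carries genes of DNA replication, translation, RNA processing, ubiquitin turnover and interferon reception, and long stretches of it correspond to human chromosome 21 and to the human 22q11.2 region. The files hold RNA only, and DNA copy number is not analysed here.

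Promoters of 4 members are shown because they span the range of levels in wt 1. Cct8 (a chaperonin subunit) and Sod1 (the cytosolic superoxide dismutase) stand for the abundant members that were higher in wt 1, Fstl1 (a secreted glycoprotein) for members far above the others in that line, and Liph (a phosphatidic acid lipase) for the few below. Each sequence runs from 250 bases before to 50 bases after the RefSeq start on GRCm38.p6, with CG dinucleotides in capitals. The places are chr16:87495820-87496119, minus strand, for Cct8, chr16:90220512-90220811, plus strand, for Sod1, chr16:37776805-37777104, plus strand, for Fstl1, and chr16:21995493-21995792, minus strand, for Liph.
Cct8 promoter: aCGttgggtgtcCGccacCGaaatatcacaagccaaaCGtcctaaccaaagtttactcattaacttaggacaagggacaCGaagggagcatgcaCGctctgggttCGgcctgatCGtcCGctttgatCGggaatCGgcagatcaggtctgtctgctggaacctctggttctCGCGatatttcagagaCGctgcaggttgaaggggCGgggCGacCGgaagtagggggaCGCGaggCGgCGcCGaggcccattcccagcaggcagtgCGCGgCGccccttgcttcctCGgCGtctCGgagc
Sod1 promoter: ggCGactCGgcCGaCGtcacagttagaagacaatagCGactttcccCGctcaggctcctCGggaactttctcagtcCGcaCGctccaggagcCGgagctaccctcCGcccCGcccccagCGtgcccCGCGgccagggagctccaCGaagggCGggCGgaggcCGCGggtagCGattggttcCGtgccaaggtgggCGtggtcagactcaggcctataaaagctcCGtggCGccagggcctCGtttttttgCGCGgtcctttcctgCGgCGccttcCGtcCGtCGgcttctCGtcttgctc
Fstl1 promoter: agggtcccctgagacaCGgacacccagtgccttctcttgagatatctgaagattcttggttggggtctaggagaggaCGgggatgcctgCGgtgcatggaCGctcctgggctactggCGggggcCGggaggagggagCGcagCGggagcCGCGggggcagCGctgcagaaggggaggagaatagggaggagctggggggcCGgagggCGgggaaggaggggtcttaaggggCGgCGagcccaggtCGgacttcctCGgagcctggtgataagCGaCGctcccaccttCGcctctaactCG
Liph promoter: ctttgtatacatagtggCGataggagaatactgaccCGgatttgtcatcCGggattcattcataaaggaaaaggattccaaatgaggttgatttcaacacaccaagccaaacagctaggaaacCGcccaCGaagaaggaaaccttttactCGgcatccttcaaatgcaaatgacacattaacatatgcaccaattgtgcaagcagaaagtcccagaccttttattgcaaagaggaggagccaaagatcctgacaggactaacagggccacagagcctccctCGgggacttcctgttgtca
These windows hold 28, 34, 21 and 7 CG, in the same order.

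RefSeq promoters were matched by symbol for 283 members, and the 344 promoters of these genes held a median of 23 CG against 7 in all 32851 promoters of the table. At least 1 CG was present in 99.4% of the members' promoters and in 94.6% of all, counted on either strand since CG reads the same on both. The level of wt 1 did not follow this count in order. With 0 to 5 CG (n = 8) the median log2 CPM of wt 1 minus the median of the other 9 lines was 0.38, with 6 to 15 CG (n = 50) 0.45, with 16 to 25 CG (n = 102) 0.50 and with 26 or more (n = 123) 0.47.

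Reads assigned to genes ranged from 31095285 to 39916039 per line. Tdg itself matched the labels, at 90.5, 94.2 and 94.9 CPM in the wt lines, 42.1 to 47.8 CPM in the Tdg+/- lines and 7.90 to 9.67 CPM in the Tdg-/- lines. Summed over 8 pluripotency markers, wt 1 had 4370 CPM and the other lines 4662 to 5101 CPM. Single markers differed, since wt 1 was the lowest line for Tdgf1 (846 CPM against 1029 to 1570 CPM), within the range of the others for Pou5f1 (1292 CPM against 1034 to 1727 CPM) and the highest for Nanog (726 CPM against 587 to 708 CPM). The 8 feeder fibroblast markers summed to 25.9 CPM in wt 1, within the 6.09 to 51.6 CPM of the others, and the 6 primitive endoderm markers to 3.51 CPM against 2.10 to 3.80 CPM. None of these markers was at 0 in every line. Chromosome 11 was higher in the Tdg+/- lines than elsewhere, with line medians of 0.27, 0.41 and 0.33 on the log2 scale used below. Tdg-/- 1 differed more from each of the other 3 Tdg-/- lines (chi-square per gene 87.0 to 142) than those did from each other (19.0 to 27.1), and wt 1 likewise differed more from wt 2 and wt 3 (53.9 and 72.0) than these did (20.8). The share of reads from the mitochondrial genome was lowest in wt 1, 0.899% against 1.03 to 1.68%. The part of this share and of the markers in the chromosome 16 level of wt 1 was not tested.

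The members were higher in wt 1 than in any other line. For each member the log2 CPM of a line, with a prior count of 2, was set against its median over the 10 lines, and the median over the members was then taken. It was 0.45 in wt 1, 0.015 in wt 2 and 0.0032 in wt 3. In Tdg+/- 1 to 3 it was 0.01, -0.024 and 0.0036, and in Tdg-/- 1 to 4 0.0099, -0.15, -0.11 and -0.11. The value of wt 1 lay above that of every other line, and the 2 other wt lines lay close to the Tdg+/- lines and to Tdg-/- 1. In wt 1 the medians of the other 18 autosomes ran from -0.04 to 0.072, so its value for chromosome 16 had no counterpart there.

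The members of Tdg-/- 2, 3 and 4 lay below the 10-line median, but so did the genes of the other autosomes chosen by the same rule, at -0.18, -0.12 and -0.13. After subtracting the median of the other autosomes of the same line, chromosome 16 stood at 0.43 in wt 1 and between -0.054 and 0.025 in the other 9 lines. The share of a line's reads that fell on the members also set this line apart, 3.26% in wt 1 and 2.22 to 2.49% elsewhere.

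**Figure D1:**
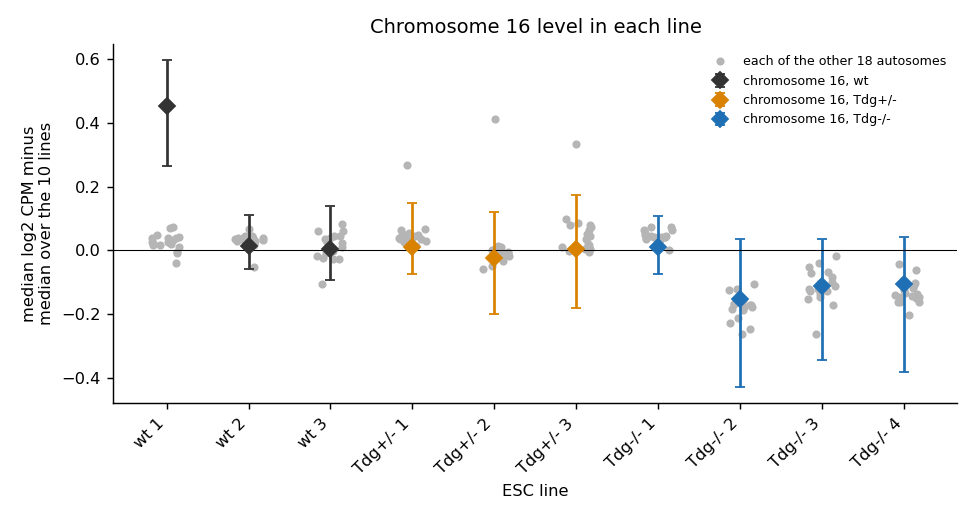
Median of the members' log2 CPM after centring each gene on its 10-line median (vertical axis) for each ESC line (horizontal axis), with chromosome 16 as diamonds coloured by genotype, bars from the first to the third quartile of its 333 members, and each of the other 18 autosomes as a grey point. The diamond of wt 1 stands at 0.45 while its grey points lie between -0.04 and 0.072, and the single high grey point in each Tdg+/- line is chromosome 11.

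The difference was spread over most members and was not carried by a few of them. In 314 of 333 members (94.3%) wt 1 lay above the median of the other 9 lines, against 55.6% of the 9855 genes of the other autosomes. It was the highest of all 10 lines in 232 members (69.7%), where the background was 16.5% of those genes. The other wt lines were the highest in 11 and 15 members (background 4.9% and 11.6%), the Tdg+/- lines in 10, 12 and 24 (12%, 8.94% and 20.5%), and the Tdg-/- lines in 8, 9, 8 and 4 (8.21%, 8.93%, 3.29% and 5.21%), so none of them led in more than 24. As a ratio, wt 1 over the median of the other 9 lines had its quartiles at 1.24, 1.39 and 1.55, which for the other autosomes were 0.898, 1.03 and 1.18. A ratio of 2 or more was reached by 21 members (6.31%), beside 1.69% of the genes of the other autosomes. The interquartile range of the members' centred values was 0.331 in wt 1, 0.17 in wt 2 and 0.232 in wt 3. It was 0.225, 0.318 and 0.353 in Tdg+/- 1 to 3, and 0.183, 0.463, 0.378 and 0.424 in Tdg-/- 1 to 4. For log2 CPM of wt 1 minus the median of the other 9 lines, the members' quartiles were 0.306 and 0.636. On the other autosomes they were -0.156 and 0.245, so the spread in wt 1 was not particular to the members.

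The higher level of wt 1 ran along the whole chromosome. With the members in gene order and cut into 10 blocks of 33 or 34, the block median of wt 1 minus the median of the other 9 lines lay between 0.40 in block 6, from Fbxo45 to Kpna1, and 0.53 in block 9, from Vgll3 to Ifngr2. The first block, from Zfp263 to Emp2, had 0.48 and the last, from Tmem50b to A630089N07Rik, had 0.44. No block was near 0. In each block wt 1 was the highest line in 20 to 26 members. The longest run of consecutive members in which wt 1 lay above the median of the others was 45, and the longest run in which it did not was 3, formed by Nepro, Gtpbp8 and Ccdc80, which were chosen for mention after their values were seen. Block medians of the other 9 lines, centred on the 10-line median, stayed between -0.20 and 0.10.

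The blocks also differed within other lines. Tdg+/- 2 was lowest in block 7, from Wdr5b to Nectin3, at -0.20, and Tdg+/- 3 was lowest in block 8, from Morc1 to Chmp2b, at -0.20 and highest in block 3, from Pkp2 to Tango2, at 0.10. Over the 10 blocks the medians ran from -0.004 to 0.043 in wt 2, from -0.074 to 0.096 in wt 3 and from -0.021 to 0.037 in Tdg+/- 1. None of these block values came near the lowest of wt 1, 0.35.

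**Figure D2:**
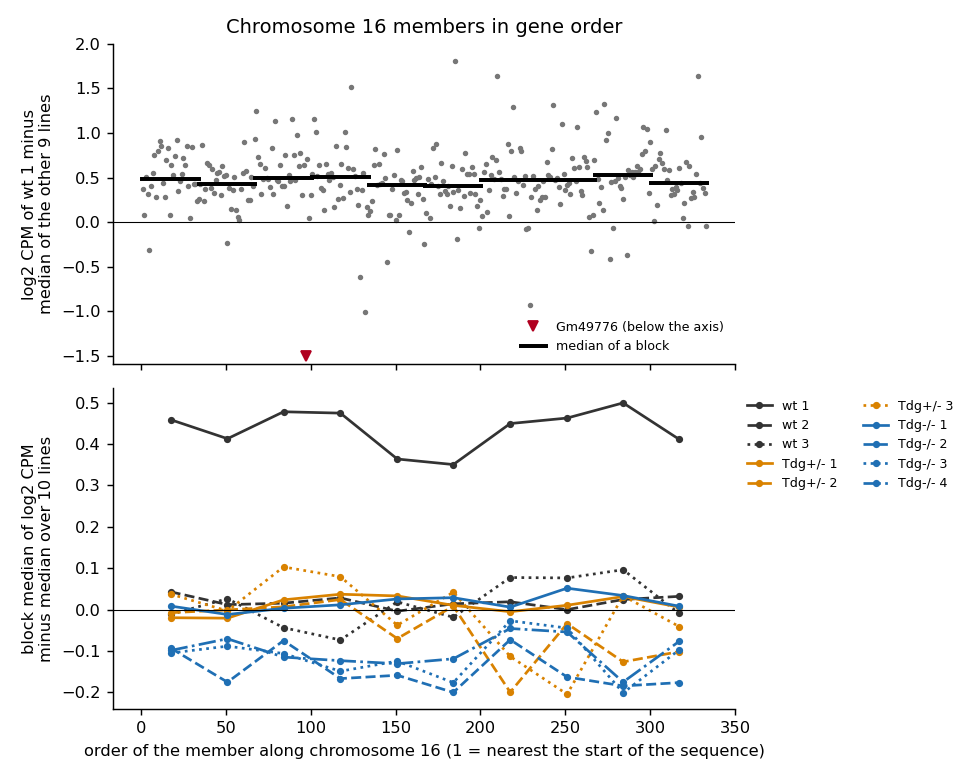
Upper panel, log2 CPM of wt 1 minus the median of the other 9 lines for each of the 333 members in gene order, with black bars for the medians of 10 blocks and a triangle for Gm49776, which had no reads in wt 1 and lies below the axis. Lower panel, the block median of each line after centring on the 10-line median, coloured by genotype, where wt 1 runs between 0.35 and 0.50 and the other 9 lines between -0.20 and 0.10.

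Members of every expression class showed it. In members of 2 to 5 CPM (n = 34) the median of wt 1 minus the median of the other 9 lines was 0.41, at 5 to 20 CPM (n = 90) 0.50, at 20 to 100 CPM (n = 152) 0.49 and at 100 CPM or more (n = 57) 0.41. Genes of the other autosomes in the same classes had 0.16, 0.097, 0.022 and -0.017, so the gap to them was smallest in the lowest class. The share of members in which wt 1 was the highest line was also smallest there, 35.3%, against 71.1 to 75% in the other classes. Genes of the other autosomes had wt 1 as the highest line in 25.8% of the lowest class and in 10.5 to 19.8% of the others, so in the lowest class the members' share lay much closer to that background.

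**Figure D3:**
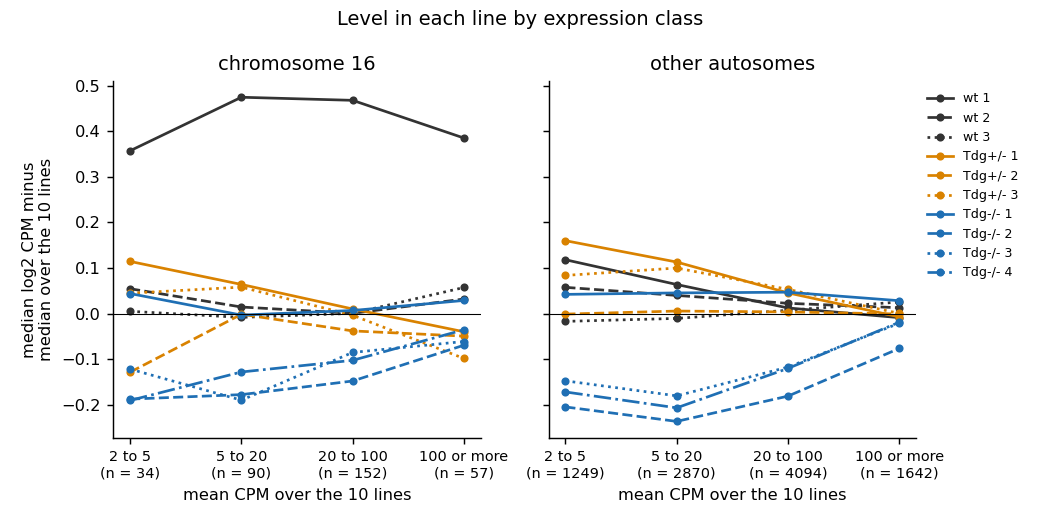
Median of the members' log2 CPM after centring each gene on its 10-line median (vertical axis) in 4 classes of mean CPM (horizontal axis, n members or genes), for the members (left) and for the genes of the other 18 autosomes (right), 1 line of points per ESC line. On chromosome 16 wt 1 stays between 0.36 and 0.47, while on the other autosomes its values lie between -0.009 and 0.12.

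Genes that the rule did not take gave 2 further readouts. A gene entered either with 20 reads in any line, wt 1 included. This filter favours genes that are high in the line described, so both are description only. The 59 protein-coding genes of chromosome 16 below 2 CPM that reached 20 reads in a line had a median of 0.33 for wt 1 minus the other lines, and wt 1 was the highest line in 24 of them (40.7%). The 2009 such genes of the other autosomes had 0.16 and 24.4%. The 32 pseudogenes of the chromosome had 0.041, with wt 1 the highest in 2 (6.25%), and the 1058 pseudogenes of other autosomes had -0.049 and 8.22%. In both readouts the median of wt 1 was thus less far above the background than in the members. Its share as the highest line lay below the background in the pseudogenes. Pseudogene reads are uncertain, since Salmon can divide them with near-identical parent genes. At the threshold itself, the 8 members between 2 and 2.5 CPM had a median of 0.24 and the 9 genes between 1.5 and 2 CPM one of 0.50.

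Transcript length moved with the level of Tdg-/- 2, 3 and 4 and much less with that of wt 1. Members under 1500 bases (n = 90) had centred medians of 0.054, 0.018 and 0.025 in these lines, and members of 4000 bases or more (n = 62) -0.46, -0.29 and -0.36. Long transcripts lay lower in those 3 libraries, and the other autosomes gave nearly the same values at 4000 bases or more, -0.46, -0.31 and -0.36. Tdg-/- 1 went from -0.038 to 0.067 over the same classes. For wt 1 minus the other 9 lines the median went from 0.54 in the shortest class to 0.41 in the longest, beside 0.089 and -0.03 on the other autosomes. The part of transcript length in the genotype comparisons below was not tested.

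**Figure D4:**
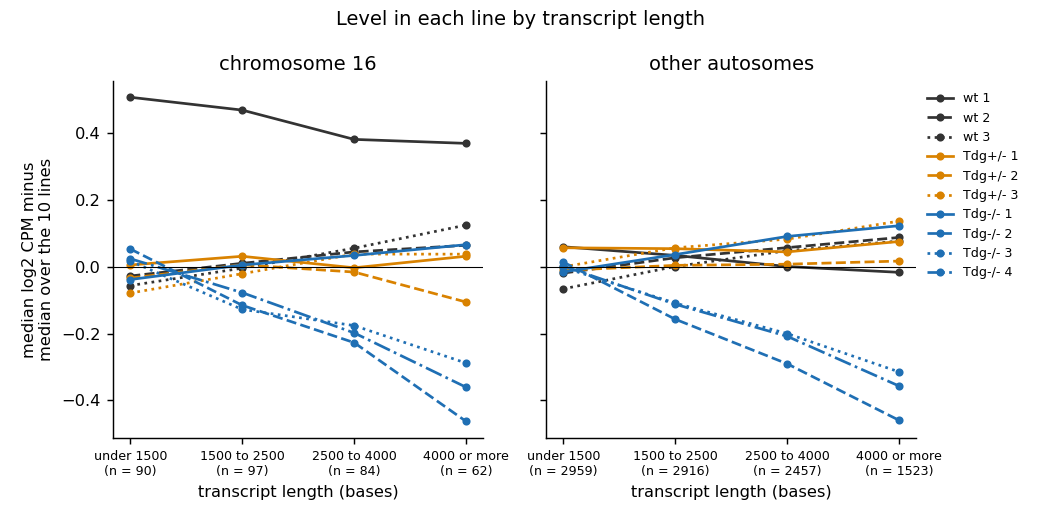
Median of the members' log2 CPM after centring each gene on its 10-line median (vertical axis) in 4 classes of transcript length in bases (horizontal axis), for the members (left) and for the genes of the other 18 autosomes (right), 1 line of points per ESC line. Tdg-/- 2, 3 and 4 descend to between -0.46 and -0.29 on chromosome 16 in the longest class, and wt 1 stays above every other line in each class there.

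The most abundant members were genes of general cell function, and wt 1 was the highest line in 9 of the 10 with the most reads. Eif4a2, an RNA helicase of translation initiation, had 1387, 839 and 877 CPM in wt lines 1 to 3, 1117, 681 and 565 CPM in Tdg+/- lines 1 to 3, and 883, 957, 1035 and 968 CPM in Tdg-/- lines 1 to 4. It varied more among the Tdg+/- lines than among the Tdg-/- lines, and wt 1 lay above all of them. Cct8, a subunit of the chaperonin that folds actin and tubulin, had 1232, 905 and 904 CPM in wt lines 1 to 3, 785, 824 and 791 CPM in Tdg+/- lines 1 to 3, and 930.4, 845, 909 and 868 CPM in Tdg-/- lines 1 to 4. The 9 other lines of Cct8 stayed within a narrow band below wt 1. Tfrc, the transferrin receptor that brings iron into cells, had 1137, 835 and 940.2 CPM in wt lines 1 to 3, 859.5, 867 and 865 CPM in Tdg+/- lines 1 to 3, and 868, 762, 740.2 and 824 CPM in Tdg-/- lines 1 to 4. Hmgn1, a nucleosome-binding protein, was the exception, with 689.8 CPM in wt 1 and 475 to 717 CPM elsewhere, since Tdg-/- 2 and Tdg-/- 3 were higher.

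Sod1 had 786, 512 and 473 CPM in wt lines 1 to 3, 579, 555 and 551 CPM in Tdg+/- lines 1 to 3, and 523, 541, 545 and 601 CPM in Tdg-/- lines 1 to 4, and Gart, an enzyme of purine synthesis, had 701 CPM in wt 1 and 406 to 539.6 CPM elsewhere. Both were well separated in wt 1, by 0.53 and 0.63 on the log2 scale from the median of the others. Usp7, a ubiquitin protease, had 697, 518 and 541 CPM in wt lines 1 to 3, 509, 559 and 585 CPM in Tdg+/- lines 1 to 3, and 533, 308, 350.5 and 346 CPM in Tdg-/- lines 1 to 4. Its wt 1 value was the highest, and Tdg-/- 2, 3 and 4 were the lowest, with no overlap with the other 7 lines. Tomm70a, a receptor of mitochondrial import, had 633 CPM in wt 1 and 413 to 553 CPM elsewhere. Rsl1d1, a nucleolar protein, had 676 CPM in wt 1 and 448 to 635 CPM elsewhere, and Eif2b5, a subunit of the exchange factor of translation initiation, had 692 CPM in wt 1 and 506 to 643 CPM elsewhere, a small gap of 0.26. Per transcript length, Eif4a2 was the most abundant member, at a mean of 1848 TPM, where TPM is a share of all transcripts after correction for length. The median over the members was 15 TPM.

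Grouped by function, the 10 lists of members had medians between 0.41 and 0.66, around the 0.47 of all members. Each value is the log2 CPM of wt 1 minus the median of the other 9 lines, which over the genes of the other autosomes had a median of 0.042. Among 14 genes of DNA replication and repair the value ranged from 0.047 to 0.94 (median 0.46), and wt 1 was the highest line in 11. Chaf1b, a chromatin assembly subunit, had 185 CPM in wt 1 and 105 to 142 CPM elsewhere. Mcm4, a subunit of the replicative helicase, had a smaller gap, 432 CPM in wt 1 and 271 to 393 CPM elsewhere. Eif4g1, the scaffold of the translation initiation complex, was next among the 12 translation and ribosome genes (median 0.47, wt 1 highest in 8), behind Eif4a2 and Rsl1d1 in reads, and had 501 CPM in wt 1 and 262 to 510.5 CPM elsewhere.

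The 13 splicing and RNA processing genes had a median of 0.49, with wt 1 the highest in 10. Ncbp2, the small subunit of the cap-binding complex, had 101 CPM in wt 1 and 63.2 to 92.1 CPM elsewhere, whereas Dgcr8, the microRNA processing partner of Drosha, had 78.8 CPM in wt 1 and 70.9 to 82.8 CPM elsewhere, a gap of only 0.045. Thus members of 1 list differed in how far wt 1 stood out. Reads of Dgcr8 cannot be told apart with certainty from those of the overlapping Gm49776, described below. The 16 genes of mitochondrial proteins had a median of 0.51, and wt 1 was above the median of the others in all 16. Slc25a1, the mitochondrial citrate carrier, had 173, 97.6 and 87.9 CPM in wt lines 1 to 3, 84.8, 92.3 and 105 CPM in Tdg+/- lines 1 to 3, and 97.2, 64.4, 64.3 and 57.7 CPM in Tdg-/- lines 1 to 4. Its wt 1 level was 1.97 times the median of the others. Trap1, a mitochondrial chaperone of the Hsp90 family, had 285 CPM in wt 1 and 176 to 239 CPM elsewhere.

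Of 22 chromatin and transcription factor genes, wt 1 was the highest in 15 (median 0.45). Morc3, a chromatin ATPase, had 356 CPM in wt 1 and 238 to 314 CPM elsewhere, and Etv5, an ETS factor downstream of FGF signalling, had 303 CPM in wt 1 and 154 to 336 CPM elsewhere. In Etv5 the upper end of the other lines came from Tdg+/- 2 and 3, which were above wt 1. The 18 ubiquitin, SUMO and proteasome genes had a median of 0.41 (wt 1 highest in 15), led in reads by Usp7 and Psmd2, a subunit of the proteasome regulatory particle, with 613 CPM in wt 1 and 309 to 487 CPM elsewhere. The 14 kinase and signalling genes had a median of 0.50 (wt 1 highest in 10). Dyrk1a, a dual-specificity kinase, did not show the difference, with 95.6 CPM in wt 1 and 75.2 to 116 CPM elsewhere and a gap of -0.039.

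Only 6 of 10 listed interferon and cytokine receptor and antiviral genes reached 2 CPM. Ifnar2, a subunit of the type I interferon receptor, had 15.6, 8.69 and 8.18 CPM in wt lines 1 to 3, 8.78, 6.75 and 7.52 CPM in Tdg+/- lines 1 to 3, and 7.97, 5.36, 5.51 and 6.35 CPM in Tdg-/- lines 1 to 4, the largest gap of the list at 1.04. Its partner Ifnar1 had 45.4 CPM in wt 1 and 31.2 to 46.1 CPM elsewhere, so the second highest value there belonged to wt 1. Parp9, an ADP-ribosyltransferase of the interferon response, had 19 CPM in wt 1 and 16.2 to 28 CPM elsewhere. Of 18 genes of membrane traffic, transport and the cell surface, wt 1 was the highest in 16 (median 0.66). Atp6v1a, the catalytic subunit of the proton pump of lysosomes, had 592 CPM in wt 1 and 279 to 419 CPM elsewhere, and Ap2m1, a subunit of the clathrin adaptor, had 274 CPM in wt 1 and 136 to 198 CPM elsewhere. The 15 metabolism genes had a median of 0.48 (wt 1 highest in 10), and Umps, which completes pyrimidine synthesis, had 164 CPM in wt 1 and 120.3 to 157 CPM elsewhere.

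The stretches that correspond to human chromosomes did not differ in direction. The 56 members whose human counterparts lie on chromosome 21 had a median of 0.52, from -0.37 to 1.65, with wt 1 the highest line in 39 and above the median of the others in 53. The 25 with counterparts in 22q11.2 had a median of 0.63, from 0.045 to 1.16, and wt 1 was above the median of the others in all of them and the highest in 20. Both lists are subsets of a chromosome that was chosen on wt 1.

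Proteins that work in one complex with a member, but are encoded on other chromosomes, are not among the genes on which the chromosome was chosen. Sod2, counted here as the partner of Sod1, is another superoxide dismutase and shares no complex with it. In 12 complexes or pairs, the 13 members had wt 1 above the median of the other lines by 0.25 to 0.89 (median 0.53), while their 43 partners ranged from -0.37 to 0.32 (median -0.023). The highest of the 10 lines was wt 1 in all 13 of these members and in 5 of the 43 partners, beside 16.5% of the genes of the other autosomes. The members' values are those on which the chromosome was chosen and are given for description. For the chaperonin, Cct8 stood at 0.51 and its 7 partner subunits between -0.37 and 0.20. The lowest of these, Cct4, lies on chromosome 11, which was higher in the Tdg+/- lines, as do the partners Psmc5 and Ap2b1. The part of chromosome 11 in their values was not tested. Tcp1, the alpha subunit, had 989.7 CPM in wt 1 and 945 to 1093 CPM elsewhere, and Cct7 had 782 CPM in wt 1 and 639.7 to 767 CPM elsewhere.

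For the base of the proteasome, Psmd2 stood at 0.61 and its 8 partners between -0.21 and 0.011. Psmd1, the other large scaffold subunit, had 366 CPM in wt 1 and 343 to 429.5 CPM elsewhere. Cdc45, which joins the replicative helicase, had 98.6 CPM in wt 1 and 54.8 to 75.6 CPM elsewhere, whereas the 4 GINS genes ranged from -0.23 to 0.071. In the clathrin adaptor the gap of wt 1 to the median of the other lines was 0.65 for Ap2m1 and 0.19 to 0.32 for its 4 partners, of which only Ap2s1 had wt 1 as the highest line. Mcm4 stood at 0.25 and Mcm2, Mcm3, Mcm5, Mcm6 and Mcm7 between -0.23 and 0.064.

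Among members of at least 10 CPM, 6 stood furthest above the other lines in wt 1. Ripk4, a kinase of epithelial differentiation, had 39.9, 19.2 and 18.3 CPM in wt lines 1 to 3, 15.5, 6.56 and 12.7 CPM in Tdg+/- lines 1 to 3, and 18.8, 12.4, 12.1 and 10.5 CPM in Tdg-/- lines 1 to 4. Fstl1 had 221, 90 and 63.4 CPM in wt lines 1 to 3, 59.8, 44.4 and 65.1 CPM in Tdg+/- lines 1 to 3, and 81.5, 93.3, 71 and 75.6 CPM in Tdg-/- lines 1 to 4. In both genes wt 1 lay outside the range of all other lines, by 1.65 and 1.64 on the log2 scale from their median. Fibroblasts also express Fstl1, and the part of feeder RNA in its values was not tested. Clcn2, a chloride channel, had 51.4 CPM in wt 1 and 14.2 to 29.6 CPM elsewhere, Pkp2, a plaque protein of desmosomes, had 43.5 CPM in wt 1 and 13.1 to 29.3 CPM elsewhere, and Olig2, a transcription factor of neural progenitors, had 30.7 CPM in wt 1 and 8.33 to 18.2 CPM elsewhere. Klhl22, an adaptor of a ubiquitin ligase, had 70.1, 31.3 and 23.6 CPM in wt lines 1 to 3, 51.4, 47.1 and 41.9 CPM in Tdg+/- lines 1 to 3, and 63.7, 16.8, 21 and 27 CPM in Tdg-/- lines 1 to 4, where Tdg-/- 1 came close to wt 1.

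The 6 members that stood furthest below began with Gm49776, which had no reads in wt 1, Tdg-/- 2 and Tdg-/- 4. A count of 0 still allows 3 reads, and the other 7 lines had 33.9 to 49.2 CPM. Gm49776 overlaps Ranbp1 (a regulator of nuclear transport) and Dgcr8 on the same strand, so its reads cannot be told apart from theirs with certainty, and summed over the 3 genes wt 1 had 645 CPM and the other lines 412 to 526 CPM. Liph had 21, 34.9 and 26.3 CPM in wt lines 1 to 3, 64.4, 82.4 and 57 CPM in Tdg+/- lines 1 to 3, and 26.9, 42.3, 33.7 and 67.9 CPM in Tdg-/- lines 1 to 4. The lowest of these was wt 1 and the highest were Tdg+/- 2, Tdg-/- 4 and Tdg+/- 1. Ehhadh, an enzyme of peroxisomal fatty acid oxidation, had 9.23 CPM in wt 1 and 9.38 to 19.7 CPM elsewhere, and Bach1, a repressor of haem oxygenase genes, had 84.5 CPM in wt 1 and 86.1 to 130.3 CPM elsewhere. Zfp654, a zinc finger protein, had 75.3 CPM in wt 1 and 65.9 to 104 CPM elsewhere, and D16Ertd472e, a gene with no named function, had 39.7 CPM in wt 1 and 33.1 to 66.1 CPM elsewhere. Both of the last lay inside the range of the other lines.

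Single members also stood apart in other lines, counted where a member of at least 10 CPM deviated by more than 1 on the log2 scale from the chromosome 16 median of its line. There were 4 such members in wt 1, 3 in Tdg+/- 2, 2 in Tdg-/- 4, 1 each in Tdg+/- 3 and Tdg-/- 2, and 0 in the other 5 lines. In Tdg+/- 2 these were Liph at 1.13, A630089N07Rik at -1.11 and Ripk4 at -1.07. A630089N07Rik had 21.2, 22.5 and 24.9 CPM in wt lines 1 to 3, 22.5, 9.77 and 10.5 CPM in Tdg+/- lines 1 to 3, and 14.6, 25, 18.6 and 21.8 CPM in Tdg-/- lines 1 to 4, so Tdg+/- 2 and 3 were the lowest lines. In Tdg-/- 4, besides Gm49776, it was Ets2, an ETS factor of trophoblast, with 40.5, 26.1 and 25.9 CPM in wt lines 1 to 3, 27.3, 33.4 and 35 CPM in Tdg+/- lines 1 to 3, and 35.6, 12.2, 15.7 and 12.3 CPM in Tdg-/- lines 1 to 4. Tdg-/- 2, 3 and 4 lay below every other line of Ets2, and Tdg-/- 1 was among the highest.

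The first genotype comparison asks what 1 intact copy of Tdg changes against 2. All 333 members reached 20 reads in a line and were tested among 13880 genes. With edgeR's quasi-likelihood test and Benjamini-Hochberg adjustment none was called between Tdg+/- and wt, where 0.0288% of all genes were. Without adjustment, 4 members were higher and 64 lower at p under 0.05, beside 9.55% and 7.41% of all genes, and DESeq2 called 22, 3 higher and 19 lower, beside 5.36% of all genes (3.51% higher and 1.85% lower). The median log2 fold change of the members was -0.20 and that of all genes -0.016. Without wt 1 it was -0.034 for the members and 0.014 for all genes, edgeR again called 0 members (beside 0.0581%), and the unadjusted calls became 30 higher and 37 lower, beside 12.8% and 10.4%. Leaving out Tdg+/- 1 gave 4 calls, all lower (1.2%), beside 1.5% of all genes (1.21% higher and 0.282% lower). The fits that include wt 1 hold the line on which the chromosome was chosen.

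By single genes, Liph (values above) averaged 27.4 ± 6.98 CPM over the wt lines and 68 ± 13.1 CPM over the Tdg+/- lines (SD, n = 3 each), and these groups did not overlap (log2 fold change 1.31 ± 0.22 (SE), adjusted p = 0.0814 by edgeR). B3gnt5, a glycosyltransferase that starts lacto-series glycolipids, had 123, 93.9 and 108 CPM in wt lines 1 to 3, 71.8, 57.4 and 59.9 CPM in Tdg+/- lines 1 to 3, and 88.9, 93.3, 90.5 and 81.3 CPM in Tdg-/- lines 1 to 4. Each wt line was above each Tdg+/- line (log2 fold change -0.79 ± 0.14 (SE), adjusted p = 0.0814 by edgeR), with wt 1 the highest. Cct8 gave log2 fold change -0.35 ± 0.13 (SE), adjusted p = 0.233 by edgeR and Tfrc log2 fold change -0.17 ± 0.12 (SE), adjusted p = 0.489. None of these differences passed the adjustment. The chromosome 11 level, high in all 3 Tdg+/- lines, moved with this comparison, and its part in the members' values was not tested.

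Lines without intact Tdg were next set against wt. Of 333 members 0 were called between Tdg-/- and wt by edgeR, beside 0.0718% of 13926 genes. DESeq2 called 3, all lower (0.901%), beside 0.668% of all genes (0.381% higher and 0.287% lower). Without adjustment 6 were higher and 61 lower, beside 9.13% and 6.79% of all genes. The median log2 fold change was -0.16 for the members and -0.011 for all genes, and without wt 1 the members had 0.0053. The calls were then still 0, beside 0.101% of all genes, and without adjustment they stood at 27 higher and 20 lower, beside 7.84% and 5.82%. Leaving out Tdg-/- 1 instead gave 59 called members (17.7%), while 22.1% of all genes were called in that fit. Of these members 10 were higher (3.0%) and 49 lower (14.7%), beside 11.7% and 10.5% of all genes. The count of calls thus changed with Tdg-/- 1, and the split by direction with wt 1.

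Lrrc15, a leucine-rich repeat membrane protein, had 21.5, 27.2 and 24.7 CPM in wt lines 1 to 3, 21.5, 21.1 and 26.2 CPM in Tdg+/- lines 1 to 3, and 14.4, 13.8, 13 and 11.4 CPM in Tdg-/- lines 1 to 4. Every Tdg-/- line was below every wt and Tdg+/- line, and Tdg-/- and wt differed by -0.76 ± 0.13 (SE) on the log2 scale (adjusted p = 0.207 by edgeR), without passing the adjustment.

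The comparison of Tdg-/- with Tdg+/- lines does not involve wt 1. It does set Tdg+/- lines that were high on chromosome 11 (line medians 0.27, 0.41 and 0.33) against Tdg-/- lines at 0.0022, -0.25, -0.26 and -0.042. The part of chromosome 11 in the members' values was not tested here either. By edgeR 23 of 333 members were called, 9 higher and 14 lower in Tdg-/- lines, which is 6.91% of the members beside 9.03% of all 13962 genes (3.52% higher and 5.51% lower). The share of members called was thus no higher than the background. The median log2 fold change was 0.018 for the members and -0.017 for all genes. The calls rested on the lines that entered. Leaving out Tdg-/- 1 gave 139 called members (41.7%, beside 40.6% of all genes), leaving out Tdg+/- 1 gave 37 (beside 11%), and leaving out Tdg+/- 2, Tdg+/- 3, Tdg-/- 2, Tdg-/- 3 or Tdg-/- 4 gave 0, beside 0.151%, 0.0864%, 0.101%, 0.158% and 0.0933% of all genes in this order, so the loss was not particular to the members. DESeq2 called 83, beside 24% of all genes.

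Of the 9 higher members, 5 are named by smallest p. Cggbp1, a protein that binds CGG repeats, had 291, 334 and 345 CPM in wt lines 1 to 3, 232, 207 and 229 CPM in Tdg+/- lines 1 to 3, and 333, 275, 293 and 273 CPM in Tdg-/- lines 1 to 4. The Tdg-/- lines lay above all Tdg+/- lines (log2 fold change 0.51 ± 0.097 (SE), adjusted p = 0.0257 by edgeR), and overlapped the wt lines. B3gnt5, with values above, gave log2 fold change 0.61 ± 0.12 (SE), adjusted p = 0.0257, and Zfp654 log2 fold change 0.54 ± 0.11 (SE), adjusted p = 0.0267. Zfp654 had 75.3, 102 and 104 CPM in wt lines 1 to 3, 65.9, 69.2 and 76.4 CPM in Tdg+/- lines 1 to 3, and 95, 94.6, 95.5 and 92.2 CPM in Tdg-/- lines 1 to 4, with 4 Tdg-/- values close together. Rnf168, a ubiquitin ligase of the DNA break response, had 115, 116 and 123 CPM in wt lines 1 to 3, 90.4, 84.6 and 86.5 CPM in Tdg+/- lines 1 to 3, and 105, 114, 111 and 111 CPM in Tdg-/- lines 1 to 4, and Poglut1, which adds glucose to Notch, had 240.2, 239 and 246 CPM in wt lines 1 to 3, 189, 163 and 190.0 CPM in Tdg+/- lines 1 to 3, and 247, 229, 201 and 232 CPM in Tdg-/- lines 1 to 4. In these 2 genes, too, no Tdg-/- line overlapped a Tdg+/- line (log2 fold change 0.46 ± 0.11 (SE), adjusted p = 0.0365 for Rnf168, log2 fold change 0.45 ± 0.11 (SE), adjusted p = 0.0387 for Poglut1, both by edgeR).

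The other 4 higher members were Senp5 (a SUMO protease), Fstl1, Ccdc50 and Smim11. Over all 9 the log2 fold change ran from 0.45 to 0.68 for Tdg-/- against Tdg+/-, from -1.15 to -0.42 for Tdg+/- against wt and from -0.48 to 0.15 for Tdg-/- against wt, where the last 2 sets hold no called gene. These comparisons share lines, so their values are not independent.

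Of the 14 lower members, Lrrc15 was first (log2 fold change -0.69 ± 0.13 (SE), adjusted p = 0.0257 by edgeR). Pkp2 had 43.5, 21.3 and 18.2 CPM in wt lines 1 to 3, 28.6, 29.3 and 24.5 CPM in Tdg+/- lines 1 to 3, and 18.3, 14.1, 13.1 and 17.2 CPM in Tdg-/- lines 1 to 4, and the Tdg-/- lines lay below all Tdg+/- lines (log2 fold change -0.70 ± 0.14 (SE), adjusted p = 0.0269). The wt lines of Pkp2 spread on both sides of the Tdg+/- lines, with wt 1 far above. Dop1b, a protein of endosomal traffic, had 17, 12.9 and 13 CPM in wt lines 1 to 3, 18.8, 20.4 and 18.7 CPM in Tdg+/- lines 1 to 3, and 13.6, 10.5, 12.7 and 11.8 CPM in Tdg-/- lines 1 to 4 (log2 fold change -0.56 ± 0.12 (SE), adjusted p = 0.031 by edgeR). Smpd4, a sphingomyelinase, had 90.6, 62.9 and 61.9 CPM in wt lines 1 to 3, 70.1, 79.6 and 85.1 CPM in Tdg+/- lines 1 to 3, and 63.2, 42.1, 42.9 and 43 CPM in Tdg-/- lines 1 to 4, and Pdxdc1, a decarboxylase-domain protein, had 116, 81.7 and 76.7 CPM in wt lines 1 to 3, 110.2, 115 and 113 CPM in Tdg+/- lines 1 to 3, and 93.1, 56.2, 62.2 and 64.7 CPM in Tdg-/- lines 1 to 4. In both, Tdg-/- 1 was well above the other 3 Tdg-/- lines but below the Tdg+/- lines (log2 fold change -0.61 ± 0.14 (SE), adjusted p = 0.0351 for Smpd4, log2 fold change -0.60 ± 0.14 (SE), adjusted p = 0.0351 for Pdxdc1, both by edgeR).

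The remaining lower members were Brwd1, Slx4, Ppm1f, Golgb1, Tnk2, Slc12a8, Mgrn1, Abcc1 and Ifngr2. Their functions range from chromatin reading (Brwd1) and DNA repair (Slx4) to protein phosphatase (Ppm1f), kinase (Tnk2) and ubiquitin ligase activity (Mgrn1), Golgi structure (Golgb1), drug export (Abcc1) and interferon gamma reception (Ifngr2). Over all 14 the log2 fold change ran from -0.73 to -0.52 for Tdg-/- against Tdg+/- and from -0.85 to -0.094 for Tdg-/- against wt, and the median transcript length was 2603 bases, beside 3265 in the 9 higher and 2276 in all members. By function, the lists of DNA replication and repair (Rnf168 higher, Slx4 lower) and of ubiquitin, SUMO and proteasome genes (Senp5 higher, Mgrn1 lower) held 1 call in each direction. Membrane traffic held 2 lower (Golgb1 and Abcc1), the chromatin list 1 lower (Brwd1), the interferon list 1 lower (Ifngr2) and metabolism 1 higher (Poglut1). The other 4 functional lists held 0. These lists hold 6 to 22 members each, so 1 or 2 calls cannot be set apart from the 3.52% and 5.51% of all genes called higher and lower. Of the 56 members with counterparts on human chromosome 21, 3 were lower (Dop1b, Brwd1 and Ifngr2), a share near that background, and of the 25 in 22q11.2, 0 were called. In bulk samples fewer cells of a type and less RNA per cell cannot be told apart.

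**Figure D5:**
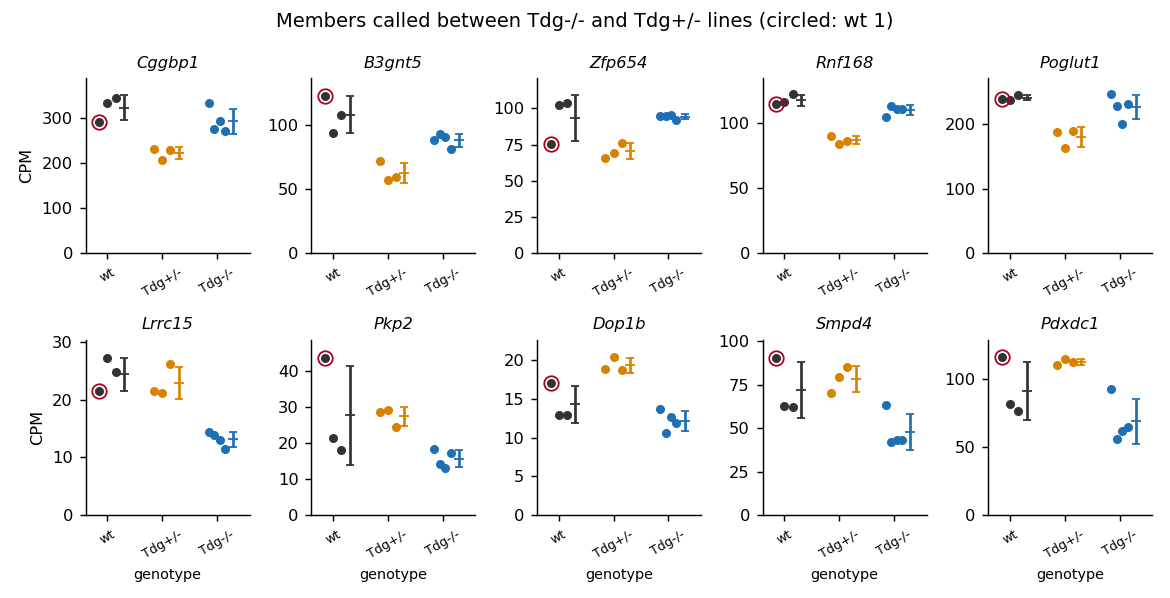
CPM (vertical axes, from 0) of the 10 named members called between Tdg-/- and Tdg+/- lines, by genotype, with 1 point per line, bars for the mean and SD of each genotype (n = 3, 3 and 4) and a red circle around wt 1. In the upper row the Tdg-/- lines lie above the Tdg+/- lines, for Cggbp1 at 273 to 333 against 207 to 232 CPM, and in the lower row they lie below them, for Lrrc15 at 11.4 to 14.4 against 21.1 to 26.2 CPM.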

How the data were processed

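RNA of 10 ESC lines (3 wt, 3 Tdg+/-, 4 Tdg-/-, 1 library each) was sequenced by the authors from ribosome-depleted, stranded total RNA libraries. The authors ran Salmon 0.8.1 against GRCm39 transcripts, and the deposited table of each line gives an estimated count per transcript with no normalization. The same deposited tables give a TPM per transcript, which Salmon scales for length and depth. Estimated counts were summed per gene through GENCODE M21, which paired 115153 of 116357 transcripts, and rounded. That annotation is on GRCm38, so it served for names and gene order and no coordinates were taken from it. The unpaired transcripts held 0.472 to 0.499% of the reads. In 488 genes the symbol was updated from RefSeq synonyms. Salmon divides reads shared by overlapping or similar transcripts, so values of such genes are estimates.

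CPM used all reads assigned to genes as the total, and log2 values a prior count of 2. The genotype comparisons used edgeR 4.0.16 (R 4.3.3; TMM, glmQLFit and glmQLFTest, only the 2 genotypes compared, genes with at least 20 reads in a line), with Benjamini-Hochberg adjustment over all genes tested and a threshold of 0.05. The SE of a log2 fold change was its size over the square root of the F statistic. DESeq2 1.42.0, sva 3.50.0 (3 surrogate variables), RLE size factors, no filter, all 10 lines in a fit, a replicate block and the omission of each line were alternatives. For levels per line they were mean CPM of 1 or 5, TMM-scaled CPM, TPM, a prior count of 0.5 and a centre over 9 lines. The study's methods state no test for single genes. The edgeR step and the line medians were tested on simulated data. Figures were drawn with matplotlib 3.10.9, and tables with pandas 2.3.3.

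Replicate numbers come from the sample titles. Between Tdg-/- and wt, deviations of same-numbered lines from their group mean correlated at 0.17, 0.14 and 0.14. These values are not independent, and the titles give only a number, so a pairing was not established. A fit with the replicate block also called 0 members there, beside 0.0359% of all genes. No pair of lines of the same genotype agreed within sampling noise (chi-square per gene 19.0 to 142), and pairs across genotypes were not examined.

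The members and gene lists were chosen with earlier results of these data known. Named genes are the 10 members with most reads, up to 5 per direction and comparison by smallest p among those called, up to 4 per functional list by reads, the 6 highest and 6 lowest in wt 1 and up to 3 per line set apart from its chromosome median, both at 10 CPM or more, and the partner genes; any other gene completes a list of calls or is marked in the text as picked later. A gene that this rule chose is not reported here. Long non-coding genes and the authors' group-level results were not analysed here.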

Additional observations from a re-analysis of the deposited data

Results flagged for a closer look

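In the 4 Tdg-/- lines, 66 measures (the chromosome 16 median and the CPM of each named member) were examined for a line far from the rest, as the gap to its nearest neighbour divided by the whole range, with a critical value of 0.829. This passed in 5 of them, all members' CPM, and in each of them the line was Tdg-/- 1 and lay above the others. Smpd4 reached 0.954 (63.2 CPM against 42.1, 42.9 and 43.0 CPM) and Ifnar1 0.924 (38.0 CPM against 31.2 to 31.7 CPM). Eif4g1 reached 0.865 (435.7 CPM against 262 to 286 CPM), Ets2 0.851 (35.6 CPM against 12.2 to 15.7 CPM) and Slc25a1 0.829 (97.2 CPM against 57.7 to 64.4 CPM). Chance passes about 1 in 20 groups, and here 5 of 66 passed, all 5 on the same line. The genes are not independent, and the same library stood apart in its chi-square to the other Tdg-/- lines.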

How the results depend on the processing

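The chromosome 16 level of wt 1 ranged from 0.39 to 0.47 over 6 alternatives and was the highest of the 10 lines in each. Of 60 line levels under alternatives, 53 moved by less than 0.0507. This is the pooled SD of the levels within the Tdg+/- and within the Tdg-/- lines, with the wt lines left out. The other 7 were wt 1 at 0.391, Tdg-/- 2 at -0.0280, Tdg-/- 3 at -0.0236 and Tdg-/- 4 at -0.00487 under TMM scaling, and Tdg-/- 2 at -0.233, Tdg-/- 3 at -0.195 and Tdg+/- 3 at 0.0731 from TPM; the cause was not tested. TMM scaling shifts every gene of a line alike, so the low levels of those 3 Tdg-/- lines in CPM depend on it.

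Calls between Tdg+/- and wt were 22 by DESeq2 (beside 5.36% of all genes), 5 without a filter (beside 1.18%), 1 with all 10 lines in the fit (beside 0.163%) and 0 to 4 with a line left out. With 3 surrogate variables, which leave 1 residual degree of freedom, they were 153, or 45.9% of members beside 27.1% of all genes. Calls between Tdg-/- and wt were 3 by DESeq2 (beside 0.668%) and 0 to 59 with a line left out. Between Tdg-/- and Tdg+/- they were 83 by DESeq2 (beside 24%) and 0 to 139 with a line left out, where the share of all genes ranged from 0.0864 to 40.6%. The members' median log2 fold change ranged from -0.265 to -0.0335 for Tdg+/- against wt and from -0.230 to 0.00534 for Tdg-/- against wt, in both without wt 2 and without wt 1.

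With the replicate block 1 member was called between Tdg+/- and wt, beside 0.238% of all genes, and 0 between Tdg-/- and Tdg+/-, beside 0.0430%. Same-numbered lines correlated at 0.11, 0.059 and -0.035 in the first and 0.038, 0.025 and -0.090 in the second. Here too the titles give them only a shared number. Of 180 refits of 15 named differences, 0 reversed, 107 stayed on their side of the threshold, 61 lost a call and 12 gained one. Each of the 10 called genes lost its call in 6 or 7 of 12 alternatives, with adjusted p up to 0.202.

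With 3 or 4 lines per genotype, each 1 library, small differences were not detectable. Averaged over genes, the spread between lines of a genotype was larger than counting error. The part of counting error in members near 2 CPM and in genes with few reads was not examined.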
